A study of Mus musculus with 6 samples.

Results

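The genes described here are 31 transcripts that mark monocytes, macrophages and dendritic cells, measured in long-term hematopoietic stem cells (LT-HSCs) sorted from old mice. They were chosen by gene symbol among the 55450 genes of the count tables, and all 31 were found. They fall into 7 monocyte genes, 10 genes of resident marrow macrophages, 13 genes shared by mononuclear phagocytes and 1 gene of plasmacytoid dendritic cells. The animals were wild-type male C57/Bl6 mice of 22 to 24 months. Cells were sorted as negative for lineage markers and CD48 and positive for Sca1, cKit and CD150. Of these, the 10% with the most surface CD61 formed the CD61High group and the 10% with the least the CD61Low group, with 5000 cells collected for each library. CD61 is integrin beta 3, an adhesion receptor subunit also found on platelets and megakaryocytes. Each of 3 mice gave 1 CD61High and 1 CD61Low library (n = 3 per group), and the comparison between them is paired by mouse. Sample titles give a single mouse for every library, although the sorting protocol mentions LT-HSC pools, and the numbers were read as animals.

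Mononuclear phagocytes arise from progenitors in the marrow. Monocytes leave through the chemokine receptor CCR2 and can become macrophages or dendritic cells in tissues, while resident marrow macrophages stay, clear dying cells and nurse maturing red cells. Many of them depend on the receptor CSF1R for survival and on the transcription factor PU.1 for their identity. Gates on lineage markers are meant to leave mature cells out, and stem cells can hold low levels of myeloid transcripts themselves. In bulk samples, fewer cells of a type and less RNA per cell cannot be told apart.

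Levels are given as CPM, counts scaled to the library size and adjusted by TMM factors, which correct for differences in RNA composition. Each library held between 21354130 and 26398090 counts in genes, so that a count of 0 allows up to 0.114 to 0.140 CPM of total counts, for counting error only. The 14 LT-HSC markers summed to 4574, 2556 and 4763 CPM in CD61High of mice 1, 2 and 3, and to 6170, 1995 and 6316 CPM in CD61Low, and none of the 14 was at 0 in any library. Both libraries of mouse 2 were the lowest. Neutrophil genes had the reverse order of mice, although the LT-HSC sums of mice 1 and 3 were close. The 16 listed summed to 4902, 79765 and 250.7 CPM in CD61High and to 20352, 156544 and 1591 CPM in CD61Low. None of the 16 was at 0 in any library. Between the gates of mice 1 and 3, the LT-HSC and the neutrophil sums were both lower in CD61High. Mouse 2 thus held the lowest LT-HSC and the highest neutrophil sums, while mouse 3 held the lowest neutrophil sums. Results without mouse 2 are given for several genes and lists, a choice based on these sums. Leaving out mouse 1 or mouse 3 is described further below. Itgb3, which encodes CD61 itself, had 206, 139.8 and 227 CPM in CD61High and 294, 129 and 336 CPM in CD61Low (log2 fold change -0.32, SE 0.17, adjusted p = 0.334, edgeR with the mouse as a block). The transcript was lower in CD61High in mice 1 and 3 and higher in mouse 2, and it was not called, although the gate was set on more of the surface protein. Without mouse 2 its log2 fold change was -0.56 (SE 0.11, adjusted p = 0.0522, edgeR with the block).

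RefSeq promoter windows of build GRCm38.p6, reaching from 250 bases before to 50 bases after a transcript start, were found for 25 of the 31 members. One window is shown for a member of each role, with a further macrophage member, Apoe, because its level followed another pattern than most members. Capitals mark matches on either strand to GAGGAA, the core bound by PU.1, and to TTGCNNAA, a C/EBP site, which do not overlap here. Windows run 5′ to 3′ on the gene's strand. They lie at chr15:75111888-75112187 (minus strand) for Ly6c2, chr4:136892865-136893164 (minus) for C1qc, chr1:171059345-171059644 (minus) for Fcgr3, chr7:55767934-55768233 (plus) for Siglech and chr7:19699139-19699438 (minus) for Apoe.
Ly6c2: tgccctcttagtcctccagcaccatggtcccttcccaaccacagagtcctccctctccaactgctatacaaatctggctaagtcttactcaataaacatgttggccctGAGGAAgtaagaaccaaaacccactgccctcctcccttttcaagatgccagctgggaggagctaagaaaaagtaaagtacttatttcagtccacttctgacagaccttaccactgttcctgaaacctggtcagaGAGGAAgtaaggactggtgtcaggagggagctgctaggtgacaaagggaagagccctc
C1qc: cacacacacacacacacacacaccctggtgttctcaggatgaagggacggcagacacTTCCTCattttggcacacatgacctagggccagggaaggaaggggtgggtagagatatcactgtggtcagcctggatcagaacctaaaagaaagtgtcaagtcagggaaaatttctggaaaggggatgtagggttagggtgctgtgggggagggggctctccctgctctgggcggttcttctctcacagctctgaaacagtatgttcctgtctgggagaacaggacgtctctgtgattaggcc
Fcgr3: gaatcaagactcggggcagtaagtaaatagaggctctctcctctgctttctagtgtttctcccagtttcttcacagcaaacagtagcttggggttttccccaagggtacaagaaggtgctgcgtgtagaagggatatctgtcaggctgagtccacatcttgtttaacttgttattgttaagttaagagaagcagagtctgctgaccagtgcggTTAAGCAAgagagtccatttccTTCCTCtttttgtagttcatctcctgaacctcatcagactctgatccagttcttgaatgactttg
Siglech: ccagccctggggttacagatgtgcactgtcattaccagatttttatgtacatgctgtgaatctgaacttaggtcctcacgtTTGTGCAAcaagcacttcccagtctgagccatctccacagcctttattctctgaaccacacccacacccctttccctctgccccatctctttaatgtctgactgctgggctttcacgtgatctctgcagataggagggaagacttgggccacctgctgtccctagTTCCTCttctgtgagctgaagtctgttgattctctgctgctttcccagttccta
Apoe: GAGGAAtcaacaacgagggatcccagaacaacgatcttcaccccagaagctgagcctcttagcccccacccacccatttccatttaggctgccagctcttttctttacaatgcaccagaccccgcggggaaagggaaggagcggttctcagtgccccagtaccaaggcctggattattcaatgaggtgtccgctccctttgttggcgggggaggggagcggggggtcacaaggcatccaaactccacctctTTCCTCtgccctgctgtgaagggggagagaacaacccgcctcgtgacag

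GAGGAA occurred in a window of 17 of the 25 members and in a window of 31.3% of 27025 genes. Every window shown holds a match, so these windows do not stand for members without a match, such as Ccr2, Cx3cr1 and Ms4a6c. Other windows of Apoe, not shown, held 1 and 0 matches. Of the genes with a match, Ly6c2 had 2 in the window shown, at bases -142 and -8 counted from the start, C1qc had 1 at -193, Fcgr3 had 1 at -15, Siglech 1 at -4 and Apoe 2, at -250 and 2. The Fcgr3 window surrounds a RefSeq start that lies inside the gene's GENCODE span. TTGCNNAA occurred for 4 of the 25 members (Cd68, Fcgr3, Siglech and Trem2) and for 12.2% of genes. These matches are descriptions of the letters and not measured binding.

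Monocyte transcripts were present in all 6 libraries, and their level differed more between mice than between the CD61 gates. The 7 monocyte genes summed to 128, 1550 and 16.2 CPM in CD61High of mice 1, 2 and 3, and to 574, 2713 and 46.8 CPM in CD61Low. Within each mouse the CD61Low library held the larger sum, by 4.49, 1.75 and 2.88 times. Each of the 7 genes had the lower level in CD61High in 3 of 3 mice (24.7% of all genes tested did), and for 0 of them were the 2 groups of libraries apart (5.71% of all genes with CD61High lower and 8.62% with it higher). The fitted log2 fold changes (CD61High over CD61Low, edgeR with the mouse as a block) had a median of -1.79, beside -0.02 over all 15610 genes tested. That fit called 0 of the 7 at an adjusted p under 0.05, where it called 0.256% of all genes and 0.160% as lower. An unadjusted p under 0.05 was reached by 6 of the 7 (12.8% of all genes, lower), DESeq2 with the block called 5 as lower (7.11%) and limma voom 2 (2.33%). These shares of all genes tested are the background for every such count below.

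Ly6c2 (chromosome 15, 75108158 to 75111970, minus strand) encodes the surface antigen that marks classical monocytes. It stood at 36.8, 549 and 0.849 CPM in CD61High of mice 1, 2 and 3 and at 159, 1214 and 9.64 CPM in CD61Low. Both libraries of mouse 2 were the highest and both of mouse 3 the lowest, with CD61Low above CD61High inside each mouse. The log2 fold change was -2.08 (SE 0.41, adjusted p = 0.0793, edgeR with the block). Without mouse 2 the blocked fit gave -2.61 (SE 0.32, adjusted p = 0.0305), and over 20 alternatives the adjusted p ranged from 0.00684 to 1.

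Ccr2, the receptor for monocyte exit from marrow, had 13.4, 177 and 0.111 CPM in CD61High and 73.8, 321 and 4.62 CPM in CD61Low. In mouse 3 these were 3 and 124 counts. The log2 fold change was -2.17 (SE 0.61, adjusted p = 0.138), and it was called under 0 of 20 alternatives. F13a1 encodes the A subunit of coagulation factor XIII, made by monocytes and by megakaryocytes. Its levels were 33.5, 409 and 1.44 CPM in CD61High against 163, 620 and 10.02 CPM in CD61Low. The gap was narrowest in mouse 2. F13a1 had a log2 fold change of -1.81 (SE 0.43, adjusted p = 0.105), and it fell by 2.50 without mouse 2 (SE 0.17, adjusted p = 0.0160). Over its 20 alternatives the adjusted p ranged from 2.28e-05 to 1.

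Cx3cr1, the fractalkine receptor of patrolling monocytes, was low, with 1.55, 22.4 and 0.185 CPM in CD61High and 13.5, 36.3 and 0.633 CPM in CD61Low. In mouse 3 these were 5 and 17 counts. The fit gave a log2 fold change of -1.79 (SE 0.53, adjusted p = 0.146). Fn1, fibronectin, which stromal cells make as well, had 29.3, 334 and 6.43 CPM against 136, 385 and 8.64 CPM. The difference of Fn1 was clear in mouse 1 (log2 -2.21) and small in mice 2 and 3 (-0.21 and -0.42), and the blocked fit gave -0.94 (SE 0.42, adjusted p = 0.273). Cd14, the lipopolysaccharide co-receptor, had 4.13, 11.8 and 1.92 CPM against 7.48, 24.3 and 6.78 CPM. Unlike the genes above, its lowest CD61Low level lay above its CD61High level of mouse 1. Cd14 had a log2 fold change of -1.22 (SE 0.28, adjusted p = 0.0868). Ms4a6c, a tetraspanning membrane protein of monocytes, had 9.12, 47.2 and 5.32 CPM against 21.5, 113 and 6.48 CPM, with a log2 fold change of -0.95 (SE 0.23, adjusted p = 0.0985). Of its exon sequence, 53.1% overlaps BE692007 on the opposite strand, and the counts carry no strand.

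**Figure D1:**
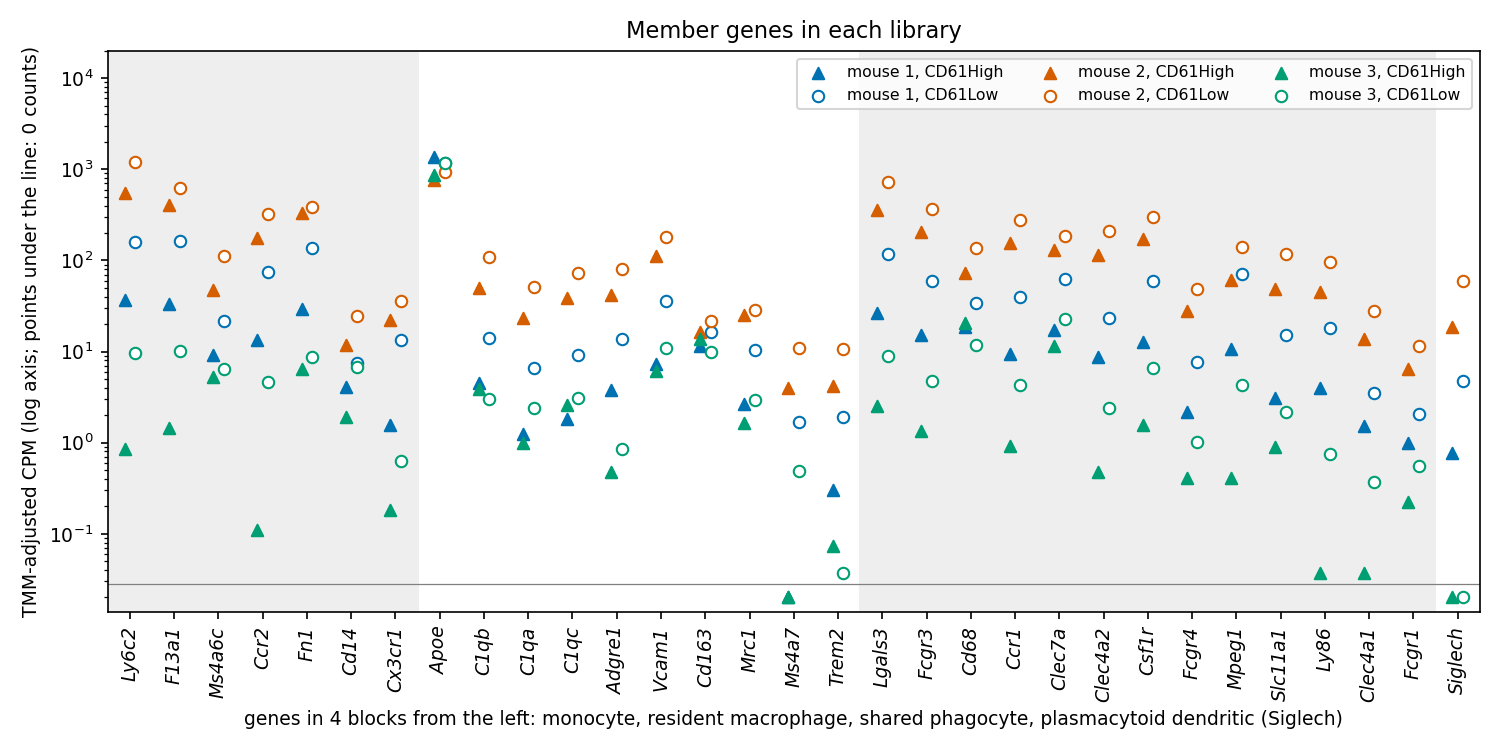
TMM-adjusted CPM of the 31 members on a log axis, 1 point per library, ordered inside each role by mean level per kilobase; triangles are CD61High and open circles CD61Low, and colours are mice. Points under the grey line are libraries with 0 counts. Most genes lie in bands by mouse, whereas Apoe and Cd163 stay within narrow ranges, from 769 to 1355 and from 9.87 to 21.8 CPM.

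Genes of resident marrow macrophages split into 2 with nearly even levels, Apoe and Cd163, and 8 whose levels differed widely between mice. Apoe (chromosome 7, 19696109 to 19699188, minus strand), the lipid carrier apolipoprotein E, made up 62.3% to 97.6% of their summed level in a library. It had 1355, 769 and 871 CPM in CD61High of mice 1, 2 and 3 and 1178, 934 and 1185 CPM in CD61Low. The highest library exceeded the lowest by 1.76 times, and both libraries of mouse 2 were below those of mouse 1. Apoe had a log2 fold change of -0.17 (SE 0.18, adjusted p = 0.614), and it was higher in CD61High in mouse 1 only. Cd163, the haemoglobin scavenger receptor, was the second member with a narrow range: 11.4, 16.5 and 13.8 CPM in CD61High against 16.6, 21.8 and 9.87 CPM in CD61Low. The range of Cd163 over libraries was 2.21 times, its log2 fold change was -0.16 (SE 0.26, adjusted p = 0.773), and in mouse 3 the CD61High library was the higher one.

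The 9 macrophage genes other than Apoe summed to 33.0, 316 and 29.5 CPM in CD61High and to 110, 566 and 33.7 CPM in CD61Low. CD61Low was higher by 3.34, 1.79 and 1.14 times in mice 1, 2 and 3, so that the gap was smallest in mouse 3. Over all 10 genes the median log2 fold change was -1.21, and edgeR with the block called 0. An unadjusted p under 0.05 was reached by 7 (12.8% of all genes), DESeq2 called 4 as lower (7.11%) and limma voom 1 (2.33%). Of the 10, 6 were lower in CD61High in all 3 mice, beside 24.7% of all genes.

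C1qa, C1qb and C1qc lie side by side on the minus strand of chromosome 4 (C1qa at 136895917 to 136898803, C1qc at 136889804 to 136893065 and C1qb at 136880129 to 136886187, GRCm38) and encode the chains of C1q, which starts the classical complement pathway and is made largely by macrophages. C1qa had 1.25, 23.3 and 0.997 CPM in CD61High and 6.57, 51.7 and 2.42 CPM in CD61Low, with a log2 fold change of -1.57 (SE 0.30, adjusted p = 0.0721). C1qb had 4.52, 50.1 and 3.91 CPM against 14.04, 109 and 3.02 CPM (log2 fold change -0.85, SE 0.39, adjusted p = 0.286). C1qc had 1.81, 38.7 and 2.58 CPM against 9.16, 72.6 and 3.13 CPM (log2 fold change -1.15, SE 0.39, adjusted p = 0.188). The chains ran together in mice 1 and 2 but not in mouse 3, where C1qa was lower, C1qc slightly lower and C1qb higher in CD61High. Those mouse 3 values rest on 27 to 106 counts in CD61High and 65 to 84 in CD61Low.

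Vcam1, the vascular cell adhesion molecule of marrow macrophages and stroma, had 7.23, 113 and 6.09 CPM in CD61High and 36.1, 181 and 10.9 CPM in CD61Low. The fit gave it a log2 fold change of -1.26 (SE 0.34, adjusted p = 0.132). Adgre1 encodes F4/80, the general surface marker of mouse macrophages, and had 3.83, 41.4 and 0.480 CPM against 13.9, 79.8 and 0.856 CPM. In mouse 3 this amounted to 13 and 23 counts. Adgre1 had a log2 fold change of -1.27 (SE 0.26, adjusted p = 0.0767). Mrc1, the mannose receptor, had 2.62, 25.0 and 1.62 CPM against 10.4, 28.6 and 2.94 CPM, and its log2 fold change was -0.98 (SE 0.37, adjusted p = 0.208).

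The last pair of macrophage genes was near the limit of detection. Ms4a7, a membrane protein of tissue macrophages, had 0, 91 and 0 counts in CD61High and 46, 219 and 13 counts in CD61Low. The counts of 0 in mice 1 and 3 allow up to 0.140 and 0.120 CPM of total counts. Ms4a7 was not called (adjusted p = 0.184). Trem2, a lipid receptor of macrophages and microglia, had 7, 97 and 2 counts in CD61High and 53, 213 and 1 in CD61Low, and an adjusted p of 0.190. Nothing can be read from its levels in mouse 3.

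**Figure D2:**
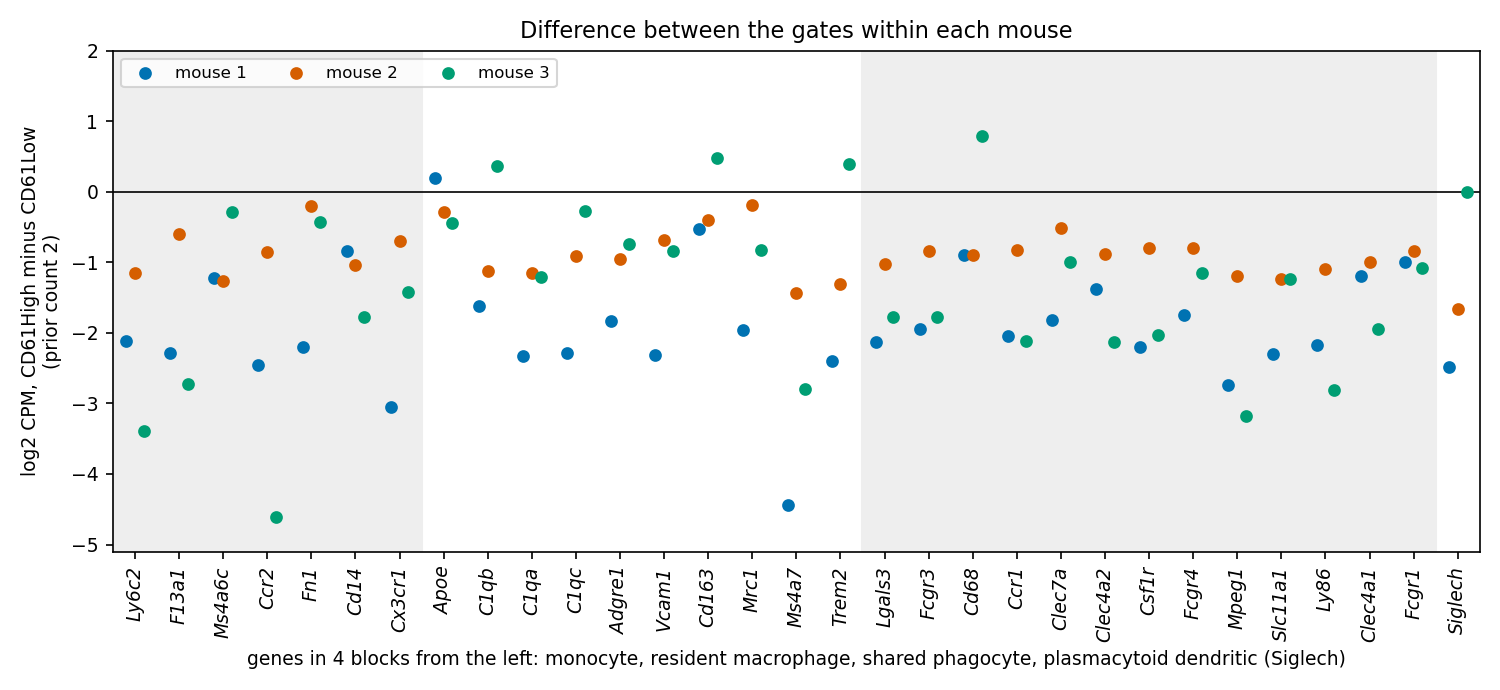
Difference in log2 CPM (prior count 2) between CD61High and CD61Low of the same mouse for each member, 1 point per mouse; values below 0 are lower in CD61High. The 7 monocyte genes lie below 0 in all mice, while C1qb, Cd163, Trem2 and Cd68 lie above 0 in mouse 3 and Apoe in mouse 1, and Siglech lies at 0 in mouse 3, where neither library had a count.

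Genes shared by monocytes, macrophages and dendritic cells followed the monocyte genes closely. The 13 genes summed to 131, 1406 and 40.7 CPM in CD61High of mice 1, 2 and 3 and to 513, 2634 and 70.8 CPM in CD61Low. Their median log2 fold change was -1.50, 12 of 13 were lower in CD61High in all 3 mice, and edgeR with the block called 0 of 13. An unadjusted p under 0.05 was reached by 12 (12.8% of all genes), DESeq2 called 11 as lower (7.11%) and limma voom 6 (2.33%). The gene outside those 12 in both counts, Cd68, a lysosomal glycoprotein of macrophages, had 18.5, 72.5 and 20.4 CPM in CD61High and 34.2, 135 and 11.7 CPM in CD61Low. In mouse 3 it was the higher one in CD61High, on 552 and 314 counts. Cd68 had a log2 fold change of -0.36 (SE 0.37, adjusted p = 0.625).

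Csf1r encodes the receptor for the macrophage growth factors CSF1 and IL-34. It had 12.8, 171 and 1.55 CPM in CD61High and 59.2, 297 and 6.59 CPM in CD61Low. The mice did not overlap: both libraries of mouse 2 were above both of mouse 1, and these above both of mouse 3. The log2 fold change was -1.65 (SE 0.31, adjusted p = 0.0771), and Csf1r fell by 2.18 without mouse 2 (SE 0.20, adjusted p = 0.0189). Its adjusted p ranged from 3.77e-06 to 1 over 20 alternatives. Exons of Hmgxb3 on the opposite strand cover 15.1% of its exon sequence. Lgals3, the carbohydrate-binding protein galectin-3, came nearest to a call of the 31, with a log2 fold change of -1.64 (SE 0.23, adjusted p = 0.0512). Its levels were 26.7, 357 and 2.55 CPM against 117, 726 and 8.94 CPM.

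Receptors for the constant part of IgG activate phagocytes through the signalling chain FCER1G. Fcgr3, the most abundant of the 3 measured per kilobase, had 15.3, 204 and 1.33 CPM in CD61High and 59.1, 366 and 4.77 CPM in CD61Low. The fit gave a log2 fold change of -1.50 (SE 0.25, adjusted p = 0.0622), and without mouse 2 it fell by 1.93 (adjusted p = 0.0198; 1.83e-06 to 1 over 20 alternatives). Fcgr4 had 2.19, 27.6 and 0.406 CPM against 7.59, 48.0 and 1.01 CPM (log2 fold change -1.26, SE 0.27, adjusted p = 0.0808). Fcgr1, the high-affinity receptor, had 0.990, 6.45 and 0.222 CPM against 2.04, 11.6 and 0.559 CPM (log2 fold change -1.02, SE 0.33, adjusted p = 0.159). All 3 receptors kept the same order of the 6 libraries, from CD61Low of mouse 2 down to CD61High of mouse 3. For Fcgr1 the mouse 3 levels rest on 6 counts in CD61High and 15 in CD61Low. Neutrophils carry Fcgr3 and Fcgr4 as well.

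Lectin receptors showed smaller gaps in mouse 2 than in the other mice, a pattern not particular to them. Over all 31 members the median log2 difference was -2.11, -0.90 and -1.21 in mice 1, 2 and 3. Clec7a, the beta-glucan receptor dectin-1, which M21 annotates as a polymorphic pseudogene, had 17.4, 129 and 11.5 CPM in CD61High and 61.8, 185 and 22.9 CPM in CD61Low. The fit gave a log2 fold change of -1.10 (SE 0.26, adjusted p = 0.0961). Clec4a2, an inhibitory C-type lectin of dendritic cells, had 8.82, 113 and 0.480 CPM against 23.1, 209 and 2.38 CPM (log2 fold change -1.36, SE 0.25, adjusted p = 0.0657). Its neighbour Clec4a1 had 35, 316 and 1 counts against 97, 557 and 10, and an adjusted p of 0.123. Clec4a1 and Clec4a2 belong to a family of similar genes on chromosome 6, as Ly6c2 and Ms4a6c do to families on chromosomes 15 and 19, and reads that fit more than 1 copy are absent from these counts.

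Of the remaining shared genes, Mpeg1, the pore-forming perforin-2, had a log2 fold change of -2.25 (SE 0.42, adjusted p = 0.0767), from 10.7, 61.7 and 0.406 CPM in CD61High and 71.8, 141 and 4.32 CPM in CD61Low. CD61Low of mouse 1 was here above CD61High of mouse 2, which broke the order seen for most genes of the group. Ccr1, a chemokine receptor of monocytes and neutrophils, had 9.51, 155 and 0.923 CPM against 39.6, 276 and 4.28 CPM (log2 fold change -1.62, SE 0.30, adjusted p = 0.0721). Slc11a1, the phagosomal metal transporter NRAMP1, had 3.05, 49.1 and 0.886 CPM against 15.3, 116 and 2.20 CPM (log2 fold change -1.63, SE 0.26, adjusted p = 0.0601). Ly86, the MD-1 partner of the receptor RP105, had 92, 1038 and 1 counts against 495, 1950 and 20. Its adjusted p was 0.0828.

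Siglech (chromosome 7, 55768178 to 55778925, plus strand), a sialic acid-binding receptor of plasmacytoid dendritic cells, was the only member with 0 counts in both libraries of a mouse. It had 18, 430 and 0 counts in CD61High of mice 1, 2 and 3 and 129, 1203 and 0 in CD61Low. In mouse 3 the counts of 0 allow up to 0.120 and 0.124 CPM of total counts. The log2 fold change of -2.04 (SE 0.34, adjusted p = 0.0661) therefore rests on mice 1 and 2.

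Per kilobase of exon, mean levels over the 6 libraries ran from 490 CPM for Apoe to 0.577 CPM for Trem2. Ly6c2 and Lgals3 followed Apoe at 120 and 111 CPM per kilobase, then Fcgr3 at 62.4, Cd68 at 38.8 and F13a1 at 30.6. This mean is carried by mouse 2, and the order differed in other mice. In CD61High of mouse 3, Cd68 followed Apoe at 16.2 CPM per kilobase, then Clec7a at 4.37 and C1qb at 3.60, with Lgals3 at 1.37 and Ly6c2 at 0.310. Apart from Apoe and Cd163, levels spread widely over libraries: F13a1 alone differed 431 times between its highest and lowest library. Such a spread does not decide the order of genes inside a library. Lgals3 stood above Fcgr3 in every library, with 1.37 against 0.766 CPM per kilobase in CD61High of mouse 3. Ly6c2 was above Lgals3 in both libraries of mouse 2 and below it in those of mice 1 and 3.

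Across the whole group, edgeR with the mouse as a block called 0 of the 31 members, where it called 40 of the 15610 genes tested. At an unadjusted p under 0.05, 26 of 31 were lower in CD61High, beside 12.8% of all genes. The 5 that missed it were Fn1, C1qb, Cd163, Apoe and Cd68. All 31 estimates were below 0, as were 51.8% of all genes, and the median log2 fold change was -1.36 against -0.02. In 25 of 31 members CD61High was lower in all 3 mice, beside 24.7% of all genes, and for 0 of 31 did the groups of libraries stay apart. The exceptions among the 31 were Apoe, C1qb, Cd163, Trem2, Cd68 and Siglech.

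Without the block, edgeR called 0 of 31 members and 0.00% of all genes, and 0 of the 31 had an unadjusted p under 0.05, beside 6.55% of all genes in either direction and 3.00% as lower. All 31 estimates were again below 0, as were 54.6% of all genes. Standard errors in that fit reached 2.51, against 0.98 with the block. With the block and without mouse 2, which leaves 1 residual degree of freedom per gene, edgeR called 11 of the 30 members tested as lower, where 2.93% of genes were called lower: Ly6c2, F13a1, Cx3cr1, Csf1r, Clec7a, Fcgr3, Lgals3, Mpeg1, Ccr1, Clec4a2 and Ly86. No macrophage gene was among them. Without mouse 2 the median log2 fold change was -1.74 over the 30 members tested, -2.50 for monocyte, -1.46 for macrophage and -1.89 for shared genes. Leaving out mouse 1 instead, edgeR with the block called 0 of 31 members and 0 of 15967 genes. Leaving out mouse 3, it called 0 of 31 members and 7 of 16106 genes. Over all 3 mice with the block, DESeq2 called 21 of 31 (7.11% of genes lower) and limma voom 10 of 31 (2.33% lower). DESeq2 without the block called 0 of 31 (0.673% lower), and edgeR with the block and no filter on low counts 10 of 31 (1.67% lower). The count of calls in this group thus depended on the tool, the block, the filter and mouse 2. Calls over all genes changed too, from 40 to 747 without the filter, 1566 with DESeq2, 489 with limma voom and 742 without mouse 2.

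**Figure D3:**
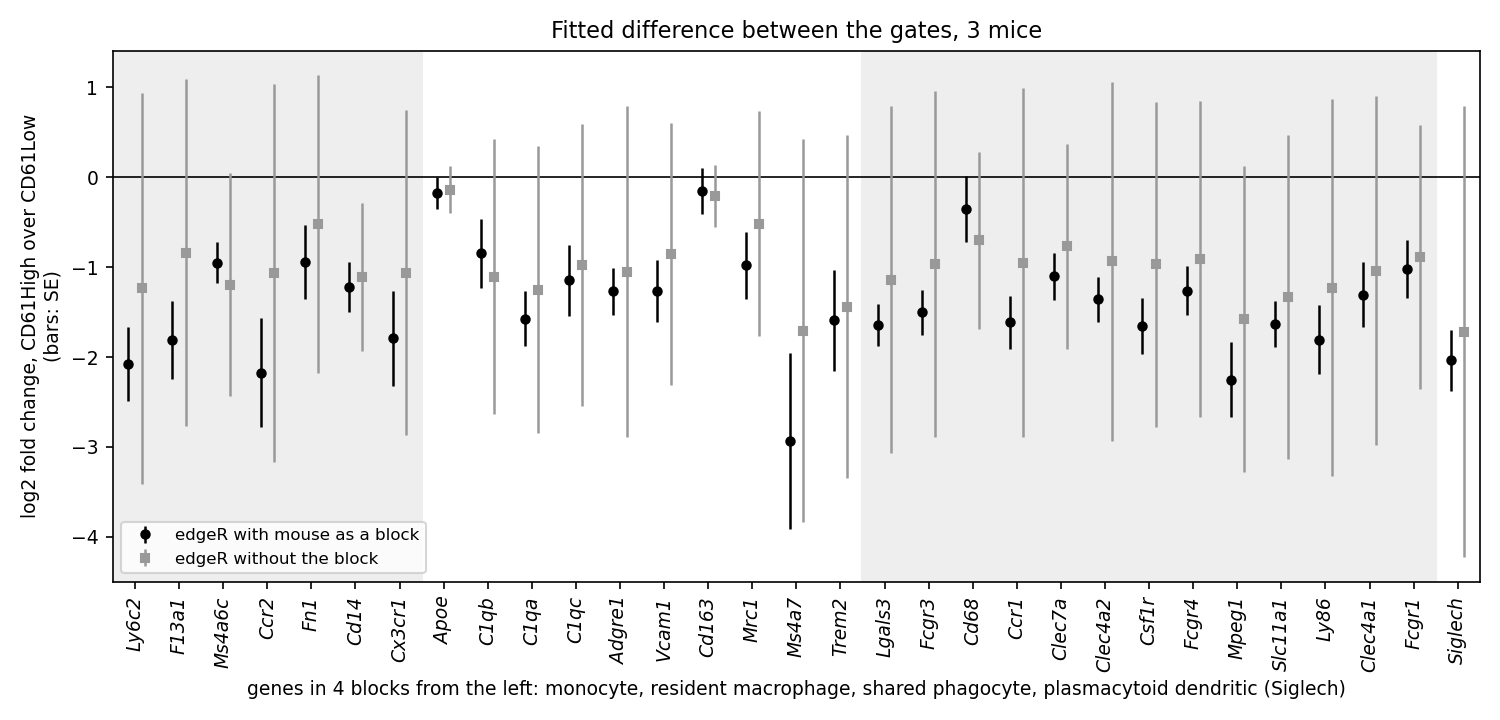
Log2 fold change (CD61High over CD61Low) of the 31 members from edgeR with the mouse as a block (black circles) and without it (grey squares), with bars of 1 SE on each side. Estimates of both fits lie below 0 for all 31, and the SE without the block reaches 2.51.

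The order of the libraries was the same for many members: CD61Low then CD61High of mouse 2, followed by the same pair of mouse 1 and of mouse 3. This exact order, chosen after its values were seen, held for 17 of 31 members and for 3.59% of all genes tested. It held for 6 of 7 monocyte genes, 10 of 13 shared genes and 1 of 10 macrophage genes (Adgre1), and for all 16 neutrophil genes. Disregarding the gate, both libraries of mouse 2 stood above those of mouse 1, and these above those of mouse 3, for 20 of 31 members and 7.67% of all genes. Median log2 differences in mice 1, 2 and 3 were -2.21, -0.85 and -1.78 for monocyte genes, -1.95, -0.88 and -1.78 for shared genes, and -2.12, -0.93 and -0.59 for macrophage genes. Neutrophil genes had -2.07, -1.04 and -2.59, and all genes tested 0.00, -0.07 and -0.01. Neutrophil transcripts thus moved with the monocyte and shared genes from library to library, and their part in the result was not tested.

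Monocyte and macrophage genes kept a similar proportion in mice 1 and 2 and another in mouse 3. The summed monocyte CPM was 3.87 and 5.21 times that of the 9 macrophage genes without Apoe in CD61High and CD61Low of mouse 1. The ratios were 4.91 and 4.79 for mouse 2, against 0.550 and 1.39 for mouse 3. Relative to the summed neutrophil level, the monocyte sum came to 2.61% and 2.82% for mouse 1 (CD61High, then CD61Low), 1.94% and 1.73% for mouse 2, and 6.48% and 2.94% for mouse 3. For the 9 macrophage genes these shares were 0.673% and 0.542%, 0.396% and 0.361%, and 11.8% and 2.12%. These values depend on few genes in CD61High of mouse 3, where Cd163 gives 13.8 and Vcam1 6.09 of the 29.5 CPM. Of the 16.2 CPM of the monocyte sum in that library, Fn1 gives 6.43, Ms4a6c 5.32 and Cd14 1.92. F13a1 gives 1.44, Ly6c2 0.849, Cx3cr1 0.185 and Ccr2 0.111 CPM. Over the 8 macrophage genes without Apoe and Cd163, a choice made after seeing the data, the monocyte ratios in CD61High and CD61Low were 5.93 and 6.13 for mouse 1, 5.18 and 4.99 for mouse 2, then 1.03 and 1.96 for mouse 3. The share of these 8 genes relative to the neutrophil sum was then 6.29% and 1.498% in mouse 3 and between 0.348% and 0.461% in the other libraries. Whether the gate difference of monocyte and macrophage genes differs was not tested.

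**Figure D4:**
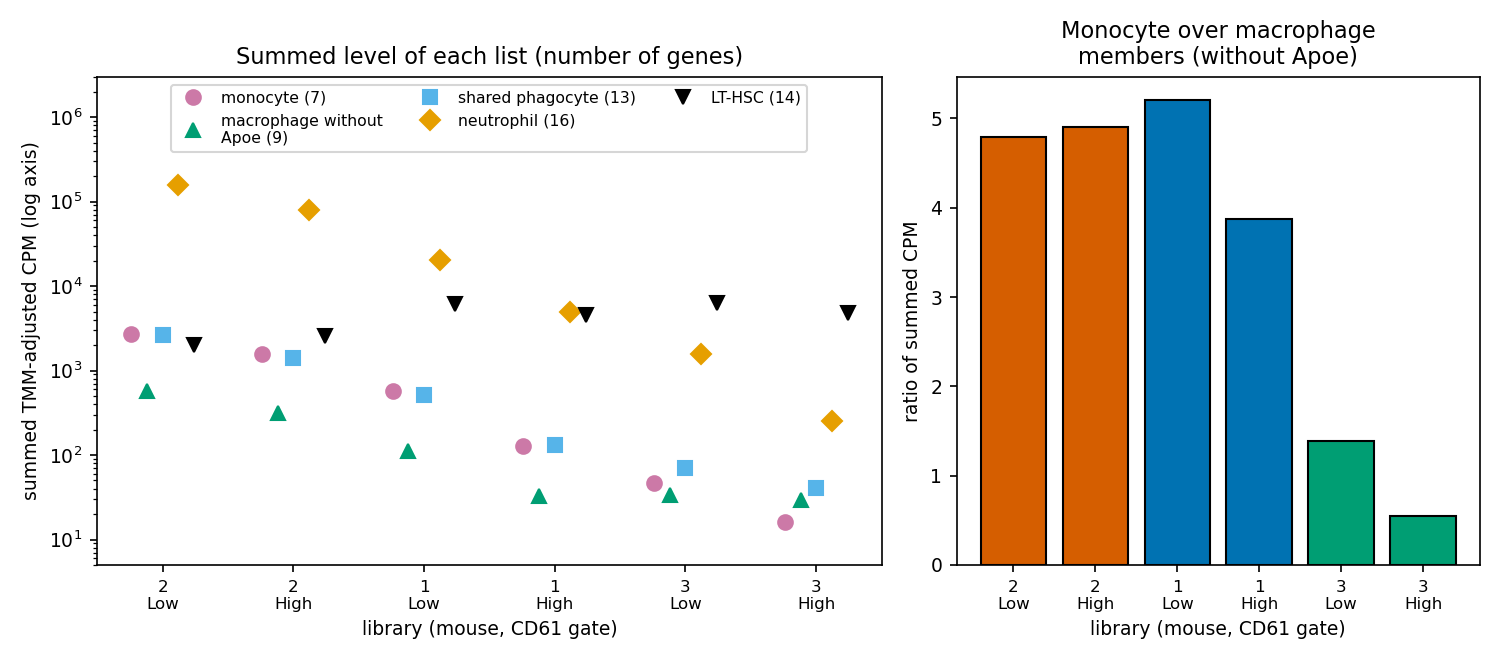
Left, summed TMM-adjusted CPM of 5 gene lists in each library on a log axis; right, the ratio of the summed monocyte members to the summed macrophage members without Apoe (Cd163 included). Monocyte, shared and neutrophil sums descend from mouse 2 through mouse 1 to mouse 3 while the macrophage sum without Apoe lies between 29.5 and 33.7 CPM in the 3 lowest libraries, and the ratio is 3.87 to 5.21 in mice 1 and 2 but 1.39 and 0.550 in mouse 3.

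Wider lists of the same cell types also lay mostly below 0, with no call by edgeR with the block. Of 23 other monocyte genes it called 0, with 16 lower at an unadjusted p under 0.05 (12.8% of all genes). DESeq2 called 11 lower (7.11%) and limma voom 3 (2.33%). Of the 23, 21 had estimates below 0 and the median log2 fold change was -1.18. The most abundant were Lyz2, lysozyme (log2 fold change -0.93, adjusted p = 0.119), Hp, haptoglobin (-1.89, adjusted p = 0.102), and Ccl6, a chemokine (-1.86, adjusted p = 0.0849). Of 19 other macrophage genes tested among 21, edgeR called 0 (8 lower at an unadjusted p under 0.05), DESeq2 7 and limma voom 2, and the median was -0.85. Selenop, the selenium carrier, had -0.09 (adjusted p = 0.750), Slc40a1, the iron exporter ferroportin, -1.26 (adjusted p = 0.133) and Axl, a receptor for dying cells, -0.86 (adjusted p = 0.0775). Siglec1, the sialoadhesin that defines resident marrow macrophages and was chosen after its values were seen, had 0, 102 and 0 counts in CD61High of mice 1, 2 and 3 and 27, 99 and 0 in CD61Low. Siglec1 was one of 3 of the 21 listed genes at 0 in CD61High of mouse 3 and the only one in CD61Low, where the list summed to 351 and 493 CPM. Without mouse 2, edgeR with the block called 5 of 22 other monocyte and 2 of 16 other macrophage genes tested lower, beside 2.93% of all genes.

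Of 17 conventional dendritic genes tested among 18, edgeR with the block called 0 (11 lower at an unadjusted p under 0.05, beside 12.8% of all genes), DESeq2 8 (7.11%) and limma voom 4 (2.33%). All 17 estimates were below 0 and the median was -1.27. Cd74, the invariant chain of MHC class II, had a log2 fold change of -1.52 (SE 0.22, adjusted p = 0.0512). H2-Aa and H2-Ab1, the class II chains, had -1.08 and -0.87. Itgax, which encodes CD11c and was chosen after its values were seen, had 0, 121 and 0 counts in CD61High and 61, 238 and 0 in CD61Low. In each library of mouse 3, 5 of the 18 listed genes were at 0, Itgax among them. The sum over the list was 588 and 1155 CPM there, of which Cd74, H2-Aa, H2-Ab1 and Wdfy4 gave 94.7% and 93.9%, and B cells express class II genes too. Without mouse 2, edgeR with the block called 3 of the 14 then tested lower, beside 2.93% of all genes. Of 13 other plasmacytoid genes tested among 15, edgeR called 0 (7 lower at an unadjusted p under 0.05), DESeq2 4 and limma voom 3. Their median was -1.16, with Irf8 at -1.52 (adjusted p = 0.0512), Tcf4 at 0.02 and Bst2 at -0.14. Of the 12 tested without mouse 2, edgeR with the block called 1 lower (2.93% of all genes).

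Partners of the members, such as their ligands and signalling chains, numbered 18 tested of the 20 found, with 0 called by edgeR (6 lower at an unadjusted p under 0.05, beside 12.8% of all genes), 6 by DESeq2 (7.11%), 3 by limma voom (2.33%) and a median of -0.38. Tyrobp, the chain that signals for TREM2, had 41.2, 540 and 3.36 CPM in CD61High and 165, 1180 and 14.9 CPM in CD61Low. The fit gave a log2 fold change of -1.74 (SE 0.23, adjusted p = 0.0512). Fcer1g, the chain of the IgG receptors, had -1.28 (SE 0.20, adjusted p = 0.0588). Itgb1, the integrin chain that binds VCAM1 with alpha 4, had 0.25 (SE 0.14, adjusted p = 0.347). Among 12 phagocyte transcription factors, edgeR called 0 (7 lower at an unadjusted p under 0.05), DESeq2 6 and limma voom 3, and the median was -0.87. Spi1, which encodes PU.1, had 84.3, 289 and 79.9 CPM in CD61High and 112, 492 and 70.8 CPM in CD61Low, and a log2 fold change of -0.34 (SE 0.20, adjusted p = 0.368). Cebpb, a C/EBP factor, had -1.24 (adjusted p = 0.0618). Without mouse 2, edgeR with the block called 4 of 17 partners and 3 of 12 transcription factors lower, beside 2.93% of all genes.

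Medians of other cell types lay below 0 as well, as did the estimates of all 16 neutrophil, 4 primary granule and 12 B lineage genes, 12 of 13 T and NK genes, 10 of 12 erythroid genes and 11 of 12 endothelial and stromal genes. One of 16 neutrophil genes, Pglyrp1, a granule peptidoglycan-binding protein, was called lower with the block (log2 fold change -1.32, SE 0.14, adjusted p = 0.0436). DESeq2 called all 16 lower and limma voom 11. Without mouse 2, edgeR with the block called 16 of 16 neutrophil, 4 of 11 B lineage and 5 of 12 erythroid genes lower. That fit also called 1 of 11 endothelial and stromal, 0 of 4 primary granule and 0 of 11 T and NK genes lower, beside 2.93% of all genes. The median log2 fold change was -1.87 for neutrophil, -1.85 for 4 primary granule, -1.48 for 12 B lineage, -1.49 for 13 T and NK cell, -1.23 for 12 erythroid and -0.48 for 12 endothelial and stromal genes. Apart from Pglyrp1, edgeR with the block called 0 genes of these lists, and 2, 11, 8, 10 and 1 genes of the last 5 lists, in that order, were lower at an unadjusted p under 0.05 (12.8% of all genes). DESeq2 called 1, 10, 5, 9 and 1 of them lower (7.11%) and limma voom 0, 4, 0, 6 and 1 (2.33%). The exact library order given above held for 8 B lineage, 6 T and NK and 6 erythroid genes. The 12 B lineage genes summed to 53.8 to 4724 CPM in CD61High and 67.5 to 7332 CPM in CD61Low, with at most 2 genes at 0 in a library. The 14 T and NK genes listed summed to 83.0 to 292 and 102 to 446 CPM, with at most 6 at 0, and the 12 erythroid genes to 3031 to 18948 and 2801 to 39331 CPM, with 0 at 0. Their part in the result was not tested. Of 14 LT-HSC genes, 2 were called lower (Procr, the protein C receptor, and Ly6a, which encodes the sort marker Sca1) and the median was -0.13. DESeq2 called 5 of them lower and 1 higher, and limma voom 4 and 1. Of all 15610 genes these tools called 1566 and 489 in either direction. Without mouse 2, edgeR with the block called 5 of 14 lower and 1 higher, Ctnnal1 (log2 fold change 0.79, adjusted p = 0.0348). That fit called 2.93% of all genes lower and 4.77% in either direction.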

How the data were processed

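The authors deposited raw read counts per gene in a table for each of the 6 libraries. The submitters' processing notes name STAR 2.7, MultiQC and edgeR, while the genome build is not given in the sources used here. All 55450 gene identifiers match GENCODE M21 (GRCm38), the source of symbols, coordinates and exon lengths. Per the labels' protocols, 4 ng of RNA entered SMART-Seq v4 and 1 ng of cDNA entered Nextera XT. Of reads assigned by strand, 49.9% to 50.0% lay on the first, and unstranded counts were therefore taken. Lines that name no gene stayed out: unmapped reads were 4.36% to 10.9%, multimapping 10.0% to 15.6%, outside genes 2.88% to 4.21% and ambiguous 3.55% to 4.37% of a library.

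The test was edgeR's robust quasi-likelihood F-test (edgeR 4.0.16, R 4.3.3), two-sided, on TMM-scaled counts filtered by filterByExpr with the gate as group. The mouse entered as a block because the titles tie each pair to an animal, and deviations from group means correlated at 0.236, 0.806 and 0.761 within mice 1, 2 and 3; CD61High of mouse 1 correlated more with CD61Low of mouse 3 (0.374) than with its own pair. Benjamini-Hochberg adjustment covered all 15610 genes kept, and a gene was called under 0.05. The filter asks for about 0.401 CPM in at least 3 libraries. All 31 members passed, each with at least 1 library of either group above that level. For Ms4a7 these were 1 CD61High and 3 CD61Low libraries. For Ccr2, Cx3cr1, Fcgr1, Clec4a1 and Ly86 they were 2 and 3. Only the CD61Low group of these genes had by itself the 3 libraries that the filter asks for. Standard errors come from the F statistic. Log2 CPM of the deposited counts carries a prior count of 2. DESeq2 1.42.0, limma voom 3.58.1, other scaling factors, no filter and left-out libraries were alternatives. No p is given for summed levels, since 3 pairs cannot give an exact two-sided p under 0.25. The edgeR fits with and without the block were run on simulated counts with known fold changes. Those counts held no differences between mice, so they cannot show how the fits behave where mice differ widely.

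Members and lists were chosen with earlier results of these data known. Every member is named. Of the wider monocyte, macrophage, dendritic, partner and transcription factor lists, the 3 genes with the highest mean CPM are named. Siglec1, Itgax and Wdfy4 are named besides. In the lists of other cell types and of LT-HSCs, the only genes named are ones that were called. Of 218 symbols in the lists, 217 matched (C1r did not). Some genes stand in several lists. Promoter windows are those of RefSeq on GRCm38.p6.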

Additional observations from a re-analysis of the deposited data

How the results depend on the processing

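All 31 members kept estimates below 0 under the 3 other scalings, without a filter and with DESeq2 or limma voom, with or without the mouse as a block where both were run. The count of members called moved from 0 to 10 without a filter, 21 with DESeq2 and 10 with limma voom, each with the block, and ranged from 0 to 11 when a mouse was left out of the blocked fit (11 without mouse 2); the cause was not tested. With no replicate block, 0 members were called by edgeR and 0 by DESeq2, and the median log2 fold change of monocyte members was -1.06 and -1.07. Leaving out a mouse with the block gave monocyte medians from -2.50 (without mouse 2) to -1.40. Without the block, leaving out mouse 1 or 3 gave -0.80 and -0.99 for monocyte and -0.80 and -0.89 for shared members. Leaving out a single library without the block unbalances the mice by construction, and the partner of the missing library still counts in its group. Without CD61High of mouse 2 the medians were -3.87 (all members), -3.92 (monocyte), -3.60 (macrophage) and -4.08 (shared), and Apoe was at 0.018. Without CD61Low of mouse 2 they were above 0, at 0.84, 0.70, 0.73 and 1.02 in the same order. Without CD61High of mouse 1 they were -0.52 for all, -0.52 for monocyte and -0.42 for shared members, with Fn1 at 0.00046, and without CD61High of mouse 3 they were -0.42, -0.44 and -0.34, with Fn1 at 0.091 and Mrc1 at 0.031. Without CD61Low of mouse 2, 28 members turned above 0 in log2 fold change: Ccr2 0.70, Ly6c2 1.21, Ms4a6c 0.56, F13a1 0.77, Fn1 0.77, Cx3cr1 0.19, Adgre1 1.05, Vcam1 0.84, C1qa 0.92, C1qb 1.19, C1qc 1.23, Mrc1 0.55, Cd163 0.074, Ms4a7 0.29, Trem2 0.63, Csf1r 0.91, Cd68 0.69, Clec7a 0.32, Fcgr1 0.97, Fcgr3 1.204, Fcgr4 1.23, Lgals3 1.03, Ccr1 1.33, Slc11a1 1.02, Clec4a1 1.38, Clec4a2 1.68, Ly86 0.80 and Siglech 1.47. Under none of these single-library settings was a member called. Cd163 turned to 0.036 without mouse 1 and ranged from -0.47 to 0.036 as each mouse was left out with the block. The summed macrophage level had a mean log2 ratio of -0.27 with Apoe and -0.92 without it. Some counts were under about 10, in mouse 3 for Ccr2, Cx3cr1, Fcgr1, Ly86, Clec4a1 and Trem2, and in CD61High of mouse 1 for Trem2. These and the 0 counts of Ms4a7 and Siglech limit what can be read there.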
